A study of Mus musculus with 12 samples.

Results

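In G1E-ER4 cells, 50 genes had less mRNA after β-estradiol (EST) when the cells carried a control vector, and lay near the level of untreated control cells when active SREBP2 was added, whether or not EST was given. They are called the members below. The rule used CPM, the estimated count of a gene scaled to the same total of 1000000 counts in every library, averaged over the 3 libraries of a group. A member had a mean of at least 5 CPM in Vector, a Vector+EST to Vector ratio under 0.714 (more than 1.4-fold lower), and SREBP2 and SREBP2+EST means within 1.2-fold of Vector in either direction (ratios of about 0.833 to 1.2). Nfe2 was left out by the rule, and its SREBP2+EST to Vector ratio of 0.822 lay outside that band in any case. Of 17210 genes in the table, 8907 reached the minimum in Vector, and the 50 members were 0.561% of these. They were 2.94% of the 1700 genes that also met the EST criterion. Because all 4 groups chose the members, their levels in these groups are a description and carry no test.

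G1E-ER4 cells are a line of mouse erythroid progenitors without their own GATA1 that express GATA1 joined to the hormone-binding part of an estrogen receptor, so that EST switches the fusion protein on. The strain is given as C57BL/6J, and 12 libraries of polyadenylated RNA were sequenced, 3 in each group. Vector cells carried an empty retrovirus for 24 h and were given vehicle, Vector+EST cells carried the empty retrovirus and were given EST for 6 h, SREBP2 cells carried a retrovirus for residues 1 to 468 of SREBP2 for 24 h and were given vehicle, and SREBP2+EST cells carried that retrovirus and were given EST for 6 h. All groups therefore shared the GATA1 fusion and a retroviral transduction, all came from a single cell line, and the EST dose was 500 nM in the sample labels but 200 nM in the description of the series. The study's legends speak of independent experiments, but the labels do not tie each library of a group to a separate culture, so the spread between libraries may in part be technical. In these bulk samples, fewer cells of a type and less RNA per cell cannot be told apart.

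GATA1 is the zinc-finger transcription factor that drives terminal red cell maturation, both by raising erythroid genes and by silencing genes of the progenitor state. SREBP2 is a transcription factor held in the membrane of the endoplasmic reticulum. When sterols are scarce it is cut, and its released amino-terminal part enters the nucleus and binds sterol regulatory elements near genes of cholesterol synthesis and uptake. The fragment expressed here is that released part, which does not need to be cut.

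Library totals ran from 18700959 to 19152281 estimated counts, so that 1 count came to 0.0528 CPM. Whether reads of the introduced fragment are counted under Srebf2 is not given in the sources used here. Srebf2 averaged 369 CPM in Vector, 447 CPM in Vector+EST, 802 CPM in SREBP2 and 793 CPM in SREBP2+EST. Gata1 reads, in which the fusion cannot be separated, averaged 1809 CPM in Vector and between 458 and 547 CPM in the other 3 groups. The labels call the cells embryonic stem cells. Of 10 embryonic stem cell markers, Pou5f1, Zfp42 and Tdgf1 were not analysed here, Dppa4 stood at 88.8 to 101.6 CPM, and the other 6 together stood at 0.159 to 0.928 CPM, while 12 of 12 erythroid markers were detected and summed to 6363 to 10287 CPM. SREBP2 library 1 and SREBP2+EST library 1 stood apart from their groups, for many genes toward the level of the other group. Nfe2 measured 200, 263 and 266 CPM in the SREBP2 libraries, library 1 first. In the SREBP2+EST libraries it measured 255, 195 and 215 CPM, again with library 1 first. Acss2 measured 527, 602 and 599 CPM and then 619, 536 and 540 CPM in the same order. Among the 1700 genes lowered by EST, SREBP2 library 1 was the lowest of its group for 71.0% and SREBP2+EST library 1 the highest of its group for 67.1%, and both held for 53.9%. The labels gave no reason, and whether these libraries were exchanged was not tested. Values of the SREBP2 and SREBP2+EST groups include these libraries unless stated. Some of the counts and medians that rest on them, but not all, are given without them as well, after the calls of the fit.

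The members as a group lay lowest in the 3 Vector+EST libraries. In single libraries their median ratio to the Vector mean was 0.994 to 1.00 in Vector and 0.945 to 1.00 in SREBP2. It was 0.923 to 0.950 in SREBP2+EST and 0.639 to 0.640 in Vector+EST. The Vector+EST to Vector ratio of the 50 members ran from 0.308 to 0.706 with a median of 0.644, beside a median of 0.982 over the 8907 genes at the CPM minimum. In SREBP2 cells without EST the ratio to Vector ran from 0.835 to 1.2 with a median of 0.975, and in SREBP2 cells with EST it ran from 0.839 to 1.19 with a median of 0.934, beside medians of 0.960 and 0.964 over genes at the CPM minimum. Scaling with edgeR's trimmed mean of M values (TMM) moved the members' first median over 1, to 1.02, and left the second under 1, at 0.973, so the first carries no direction. With both treatments the members stood 1.2 to 3.12 times as high as with EST alone, with a median of 1.47, beside 0.958 over genes at the CPM minimum, a difference that the rule itself sets. The SD of log2 CPM between the 3 libraries of a group, averaged over the members, was 0.07 in Vector, 0.10 in Vector+EST, 0.10 in SREBP2 and 0.09 in SREBP2+EST. With EST alone, 6 of 50 members stood below 50% of their Vector level, beside 33.5% of the EST-lowered genes and 6.41% of genes at the CPM minimum.

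**Figure D1:**
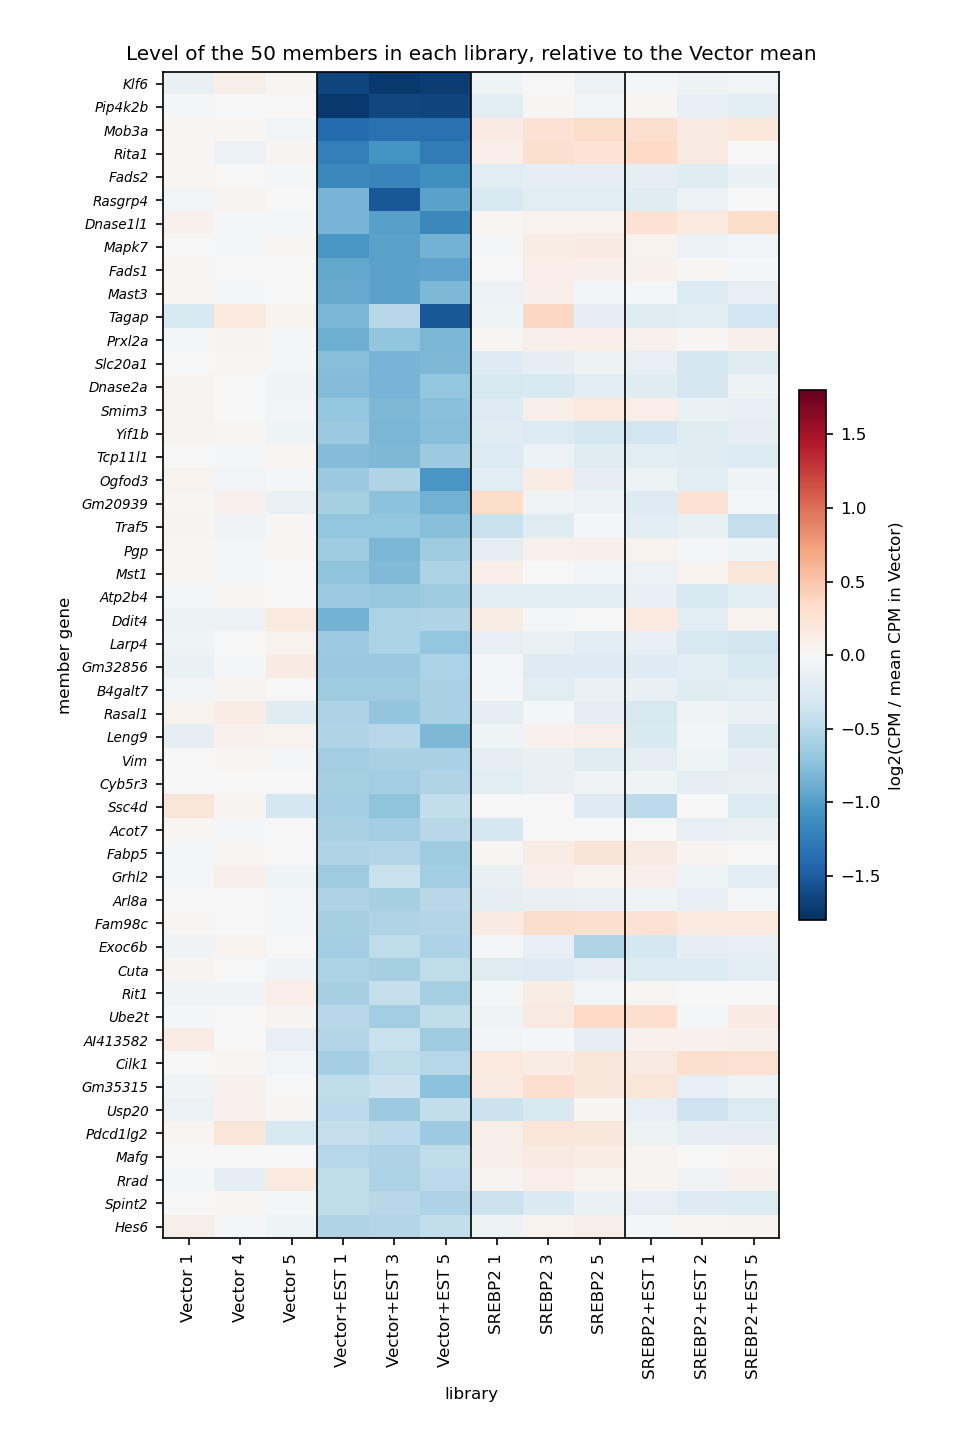
Heat map of the 50 members (rows, ordered by their Vector+EST to Vector ratio) in the 12 libraries (columns), coloured by log2 of CPM over the mean CPM in Vector. The 3 Vector+EST columns are blue in every row, deepest in Klf6 and Pip4k2b at the top, and the 6 columns with SREBP2 are pale, with single deviations such as Tagap and Gm20939.

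For 48 of 50 members all 3 Vector+EST libraries lay below each of the other 9 libraries, the exceptions being Exoc6b and Ssc4d. Over all genes at the CPM minimum this held for 6.21%, but the rule chose the members for this pattern and nothing is read from the difference. All 50 had their 3 Vector+EST libraries below the 3 Vector libraries, beside 43.6% of genes at the minimum. The band around Vector held group means and not single libraries: 26 of 50 members had all 6 libraries with SREBP2 within 1.2-fold of the Vector mean, beside 24.3% of genes at the minimum. In 24 of 50 the single libraries of both SREBP2 groups overlapped the Vector libraries in range, beside 14.5%. The band favours both counts, and nothing is read from them. Both ratios were under 1 in 25 members and over 1 in 17, beside 52.7% and 43.1% of genes at the minimum.

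Among the 1700 genes lowered by EST in Vector cells the members were few. SREBP2 cells stood below the band with and without EST for 1573 of these genes (92.5%), and above it under both conditions for 43 (2.53%). A further 21 were inside the band without EST and below it with EST, 6 were below and then inside, 6 were above and then inside, and 1 was inside and then above. Over the 1700 genes the median SREBP2 to Vector ratio was 0.571, against the median EST ratio of 0.568. CPM is not corrected for gene length and says here only how many reads lie behind a value. Members had fewer reads than these genes, with a median of 32.1 CPM in Vector against 54.6 CPM, and 12 of 50 were under 10 CPM (24%, against 8% of the EST-lowered genes).

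**Figure D2:**
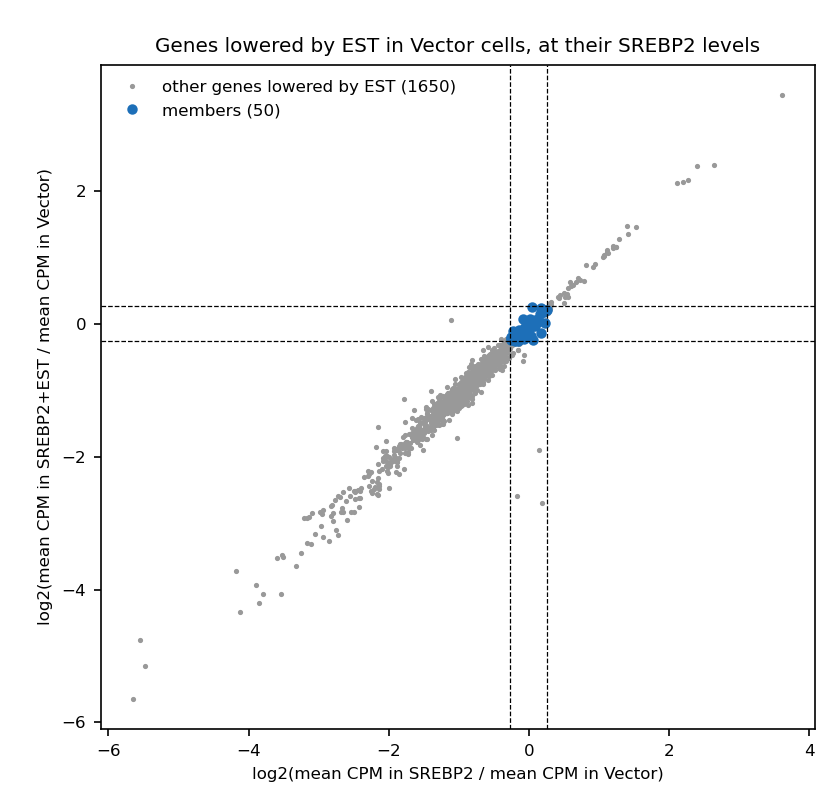
Each point is 1 of the 1700 genes lowered more than 1.4-fold by EST in Vector cells, with log2 of SREBP2 over Vector mean CPM on the x axis and log2 of SREBP2+EST over Vector mean CPM on the y axis. Dashed lines mark the band of 1.2-fold, the 50 members are the blue points inside it, and most of the 1650 grey points lie below it on both axes.

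The members are described below by what their proteins are known to do, a grouping made after the values were seen. The products of 5 members handle fatty acids. Fads1 and Fads2 encode the front-end desaturases that introduce double bonds into polyunsaturated fatty acids. Fads1 measured 331, 325 and 324 CPM in the Vector libraries, 172, 167 and 168 CPM with EST, 329.7, 353 and 349 CPM with SREBP2 and 344, 333 and 323 CPM with both. The 6 libraries with SREBP2 lay around the Vector range, and EST alone took Fads1 to 0.518 of its Vector level. Fads2 measured 497, 481 and 473 CPM in the Vector libraries, 216, 212 and 226 CPM with EST, 422, 429 and 428 CPM with SREBP2 and 430.3, 416 and 444 CPM with both. Here the 6 libraries with SREBP2 lay together below the Vector libraries, at 0.882 and 0.890 of Vector, and far above the Vector+EST libraries, at 0.451. Their edgeR log2 fold changes with EST alone, given as sizes only, were -0.93 ± 0.04 for Fads1 and -1.14 ± 0.04 for Fads2 (SE).

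Fabp5 encodes a carrier of fatty acids in the cytosol. It measured 303, 311 and 308 CPM in the Vector libraries, 211, 212 and 197 CPM with EST, 311, 337 and 362 CPM with SREBP2 and 345, 317 and 305 CPM with both. SREBP2 library 5 was the highest of the 12, and no Vector+EST library came near the other groups. Cyb5r3 encodes cytochrome b5 reductase, which passes electrons to desaturases and, in red cells, keeps hemoglobin iron reduced. It measured 281, 278 and 279 CPM in the Vector libraries, 185, 181 and 192 CPM with EST, 242, 256 and 267 CPM with SREBP2 and 266, 247 and 254 CPM with both, so that the SREBP2 libraries lay between the Vector and the Vector+EST ranges. Acot7, an acyl-CoA thioesterase that releases free fatty acids, averaged 60.9 ± 1.47 CPM in Vector (SD, n = 3), 41.02 ± 1.91 in Vector+EST, 56.9 ± 6.702 in SREBP2 and 57.2 ± 2.94 in SREBP2+EST.

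The list of fatty acid synthesis and activation genes to which Fads1 and Fads2 belong showed mostly another pattern. Of its 24 genes, all of them tested, 15 were lower and 7 higher with EST in Vector cells at an edgeR adjusted p under 0.05, beside 35.5% and 35.2% of all genes tested. With SREBP2 and no EST, 20 were higher and 2 lower, beside 37.7% and 33.8% of all genes. The median log2 fold change of the list was -0.36 with EST in Vector cells and 1.15 with SREBP2. Fads3, the desaturase-like gene on the other side of Fads2, stood at 55.8 CPM in Vector and 34.3 CPM with EST. It rose with SREBP2, to 74.1 CPM (log2 fold change 0.47 ± 0.07 SE; edgeR adjusted p = 3.22e-05), which took it out of the band. Elovl6, a fatty acid elongase, had 128 CPM in Vector, 39.7 CPM with EST and 304 CPM with SREBP2 (adjusted p = 2.67e-12 against Vector).

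**Figure D3:**
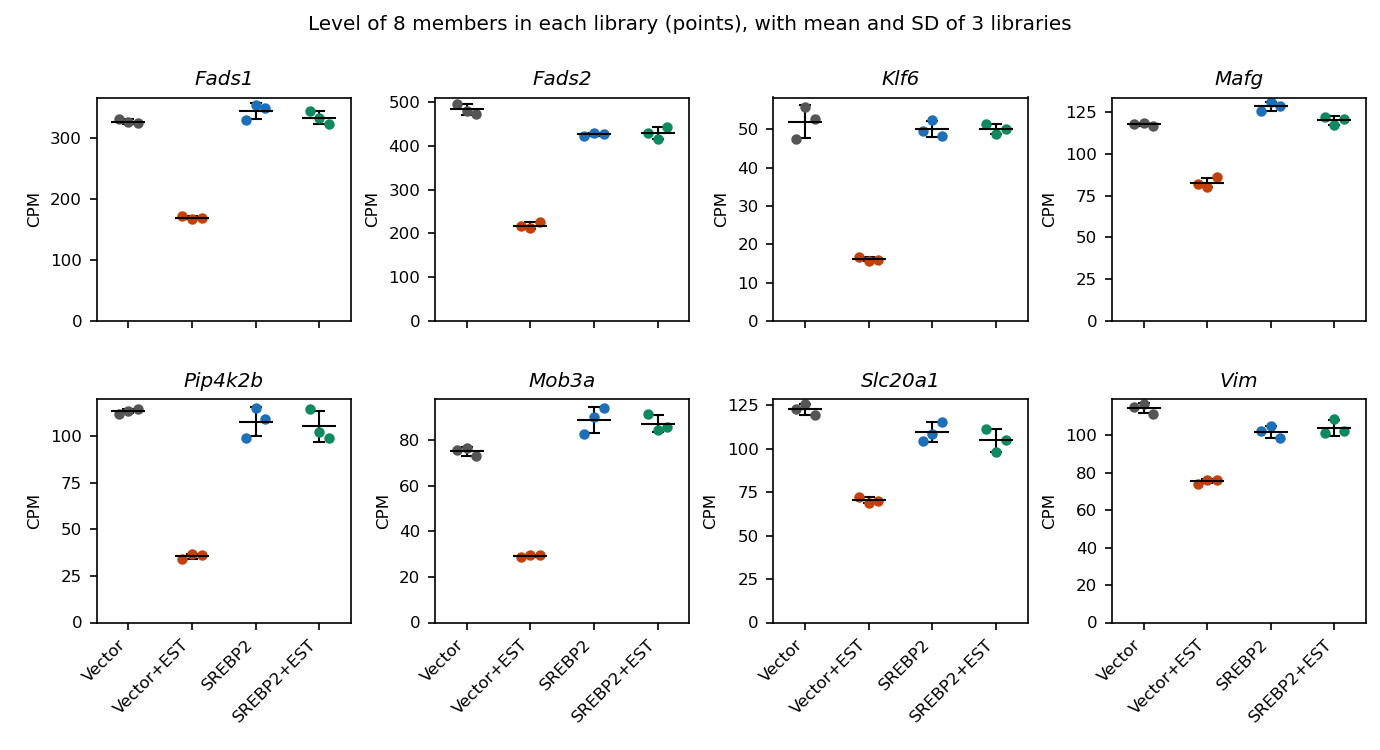
CPM of Fads1, Fads2, Klf6, Mafg, Pip4k2b, Mob3a, Slc20a1 and Vim in each library (points), with the mean and SD of the 3 libraries of a group (black) and axes that start at 0. In each panel the Vector+EST points lie below all other points. Fads2 and Slc20a1 lie below Vector in both SREBP2 groups, and Mob3a lies above it.

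Transcriptional regulators were another 5 members. Klf6 encodes a Krüppel-like zinc-finger factor that is induced early after many stimuli, and it had the lowest Vector+EST to Vector ratio of the 50. It measured 47.4, 55.8 and 52.7 CPM in the Vector libraries, 16.6, 15.5 and 15.99 CPM with EST, 49.5, 52.4 and 48.3 CPM with SREBP2 and 51.5, 48.7 and 50.1 CPM with both. The Vector+EST libraries lay at about 16 CPM, without any overlap, and the 6 libraries with SREBP2 lay within the range of the 3 Vector libraries. Its ratios to Vector were 0.308 with EST, 0.963 with SREBP2 and 0.963 with both, and its log2 fold change with EST alone was -1.68 ± 0.07 (SE). Its gene lies at chr13:5861489-5870393 (GRCm38.p6). The stretch before the first annotated transcript start of Klf6, 243 bases from RefSeq's promoter table on the plus strand, is printed because Klf6 changed most and because this stretch holds 4 CCAAT boxes (CCAAT or its reverse complement), a GC box and an E-box, in capitals in that order from the 5′ end:
Klf6, chr13:5861239-5861481, plus strand: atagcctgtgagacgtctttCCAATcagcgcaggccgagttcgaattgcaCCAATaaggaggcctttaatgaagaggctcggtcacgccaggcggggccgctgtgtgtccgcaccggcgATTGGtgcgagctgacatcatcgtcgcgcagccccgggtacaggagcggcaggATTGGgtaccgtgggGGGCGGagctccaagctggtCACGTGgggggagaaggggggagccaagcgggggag

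Mafg encodes a small MAF protein, the partner that NFE2 needs to bind DNA in erythroid cells and megakaryocytes. It measured 118, 118 and 117 CPM in the Vector libraries, 82.2, 80.2 and 85.8 CPM with EST, 126, 131 and 129 CPM with SREBP2 and 122, 117 and 121 CPM with both. The SREBP2 libraries lay above the Vector libraries and those with both treatments overlapped them, while EST alone gave 0.704 of Vector. Its partner Nfe2 had ratios of 0.381 with EST, 0.901 with SREBP2 and 0.822 with both. Mafk, another small MAF gene, was higher in all 3 treated groups, at 51.4 CPM in Vector, 126 with EST, 147 with SREBP2 and 141 with both (log2 fold change with EST 1.31 ± 0.05 SE; edgeR adjusted p = 3.62e-12).

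Hes6 encodes a basic helix-loop-helix protein that counters the HES repressors. It averaged 29.4 ± 1.92 CPM in Vector and 20.7 ± 0.708 with EST, and its SREBP2 averages, 29.9 ± 2.02 and 29.7 ± 0.731 CPM without and with EST, came from libraries that overlapped the Vector range. Rita1, whose product binds the Notch effector RBPJ and carries it out of the nucleus, measured 15.4, 14.03 and 15.6 CPM in the Vector libraries, 6.44, 7.11 and 6.31 CPM with EST, 16.3, 18.4 and 17.8 CPM with SREBP2 and 19.2, 16.8 and 15.2 CPM with both. It had the fourth lowest ratio to Vector with EST alone, 0.440, and stood above the Vector mean in both SREBP2 groups. Grhl2, an epithelial transcription factor, had ratios of 0.683, 1.01 and 0.964 in Vector+EST, SREBP2 and SREBP2+EST.

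Kinases and their regulators made up 5 members as well and included the deepest changes beside Klf6. Pip4k2b encodes a lipid kinase that uses up phosphatidylinositol monophosphate to make the bisphosphate. It measured 112, 114 and 115 CPM in the Vector libraries, 34.2, 36.6 and 36.04 CPM with EST, 99.3, 115 and 109 CPM with SREBP2 and 115, 102 and 99.04 CPM with both. EST alone left 0.314 of the Vector level, and the 6 libraries with SREBP2 were spread around the Vector range, 2 of them above its highest library. Mob3a belongs to the MOB family, some of whose members activate kinases of the Hippo pathway. It measured 75.7, 76.5 and 72.7 CPM in the Vector libraries, 28.6, 29.4 and 29.6 CPM with EST, 82.8, 89.8 and 94.05 CPM with SREBP2 and 91.2, 84.3 and 85.6 CPM with both, so that all 6 libraries with SREBP2 lay above Vector, at mean ratios of 1.19 and 1.16, close to the upper edge of the band. Mapk7, or ERK5, the kinase at the end of a mitogen cascade of its own, measured 35.2, 34.8 and 35.7 CPM in the Vector libraries, 17.005, 18.1 and 19.5 CPM with EST, 34.3, 38.7 and 39.1 CPM with SREBP2 and 36.96, 32.8 and 33.96 CPM with both. Its libraries with SREBP2 overlapped Vector, and those with EST alone lay near 0.517 of it. Mast3, a microtubule-associated serine/threonine kinase, had ratios of 0.537 with EST, 0.988 with SREBP2 and 0.909 with both. Cilk1, a kinase of the primary cilium, had ratios of 0.696, 1.13 and 1.18 in the same order, the last of them near the upper limit.

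A further 5 members act on or belong to the small GTPases, at low CPM. Rasgrp4 encodes a guanine nucleotide exchange factor that loads Ras, and measured 8.14, 8.702 and 8.51 CPM in the Vector libraries, 4.72, 2.95 and 4.34 CPM with EST, 6.99, 7.33 and 7.34 CPM with SREBP2 and 7.26, 7.82 and 8.39 CPM with both. Its Vector+EST library 3 was the lowest, and all 3 lay well below the rest. Rasal1 encodes a GTPase-activating protein that switches Ras off, and its ratios were 0.653 with EST, 0.919 with SREBP2 and 0.899 with both. Rit1, a Ras-like GTPase, had ratios of 0.687, 1.02 and 1.01, and Rrad, a Ras-related GTPase that acts on calcium channels, of 0.706, 1.06 and 1.02. Tagap, a GTPase-activating protein known from activated T cells, measured 5.34, 7.29 and 6.76 CPM in the Vector libraries, 3.64, 4.59 and 2.24 CPM with EST, 6.12, 8.34 and 5.81 CPM with SREBP2 and 5.56, 5.69 and 5.07 CPM with both. It varied most between single libraries of the 50, and its smallest value rested on 42.0 estimated counts, for which counting error alone is 15.4%. Intervals of this kind cover counting error only.

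Another 6 members encode proteins of the secretory pathway, the Golgi and the lysosome. Yif1b takes part in transport between the endoplasmic reticulum and the Golgi. It measured 76.6, 74.8 and 70.1 CPM in the Vector libraries, 46.6, 41.8 and 43.5 CPM with EST, 63.6, 62.1 and 59.3 CPM with SREBP2 and 58.04, 63.2 and 65.1 CPM with both, so that the 6 libraries with SREBP2 lay below every Vector library and above every Vector+EST library. Arl8a, a GTPase that moves lysosomes along microtubules, had the same order of groups, with 69.1 ± 0.791 CPM in Vector, 47.2 ± 1.51 with EST, 62.6 ± 1.46 with SREBP2 and 64.9 ± 2.49 with both. Dnase2a, the acid DNase of lysosomes, had ratios of 0.588, 0.842 and 0.868, and B4galt7, which starts the sugar linker of proteoglycans, of 0.650, 0.924 and 0.881. Dnase1l1, related to DNase I, measured 9.58, 8.85 and 8.82 CPM in the Vector libraries, 5.08, 4.61 and 4.06 CPM with EST, 9.19, 9.49 and 9.4996 CPM with SREBP2 and 10.9, 10.2 and 11.5 CPM with both. Its Vector+EST libraries lay at about 0.505 of the Vector mean, and those with both treatments were the highest of the 12. Exoc6b, part of the exocyst that tethers vesicles to the plasma membrane, went from 7.88 to 5.41 CPM with EST, and its SREBP2 library 5 lay within the Vector+EST range.

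Transport across the plasma membrane gave 2 members. Atp2b4 encodes a calcium pump of the plasma membrane that is prominent in red cells. It measured 318, 331 and 324 CPM in the Vector libraries, 206, 203 and 207 CPM with EST, 284, 285 and 280.4 CPM with SREBP2 and 292, 265 and 285 CPM with both. The 3 levels did not overlap: Vector was highest, the 6 libraries with SREBP2 came next, and Vector+EST was lowest. Slc20a1 encodes a sodium-dependent phosphate importer. It measured 123, 126 and 119.7 CPM in the Vector libraries, 72.5, 69.04 and 70.2 CPM with EST, 104, 109 and 116 CPM with SREBP2 and 111, 98.2 and 105 CPM with both, with the same order and no overlap between the 3 levels.

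Vim encodes vimentin, the intermediate filament protein of progenitors and mesenchymal cells, which is lost as red cells mature. It measured 115, 117 and 112 CPM in the Vector libraries, 74.1, 76.3 and 76.3 CPM with EST, 102, 105 and 98.3 CPM with SREBP2 and 101, 109 and 102 CPM with both, with the 6 libraries with SREBP2 between the other groups. Of 14 fibroblast or stromal markers, 13 were analysed, Col1a2 the highest of them, and none was at 0 in all libraries. Their sum was 21.6 to 22.9 CPM in Vector, 10.5 to 17.1 CPM in SREBP2 and 24.0 to 41.6 CPM in SREBP2+EST, and among the Vector+EST libraries 38.5 CPM in library 5 against 6.68 and 6.80 CPM in libraries 3 and 1. Vim in Vector+EST library 5 was at 76.3 CPM, the same as in library 3, and the median ratio of all 50 members to the Vector mean was 0.639 in library 5 and 0.640 in both others.

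The other members have diverse products. Larp4, an RNA-binding protein that protects poly(A) tails, measured 132, 138 and 145 CPM in the Vector libraries, 87.8, 93.3 and 85.5 CPM with EST, 125, 128 and 121 CPM with SREBP2 and 125, 113 and 110.3 CPM with both. Cuta, a small protein related to a bacterial factor of metal tolerance, measured 118, 116 and 110.2 CPM in the Vector libraries, 77.5, 75.8 and 83.4 CPM with EST, 98.4, 97.4 and 101 CPM with SREBP2 and 97.2, 96.8 and 99.2 CPM with both, and its 6 libraries with SREBP2 covered the narrowest range of the 50, 0.843 to 0.881 of the Vector mean. Pgp, a phosphatase that removes phosphoglycolate and other toxic by-products of glycolysis, measured 109, 105 and 109.5 CPM in the Vector libraries, 68.9, 60.8 and 69.4 CPM with EST, 95.1, 114 and 115 CPM with SREBP2 and 113, 106 and 102 CPM with both. Of its 6 libraries with SREBP2, which lay around the Vector range, SREBP2 library 1 was the lowest. Smim3, a small membrane protein, had ratios of 0.594, 1.02 and 0.968, and Prxl2a, a peroxiredoxin-like protein, of 0.574, 1.06 and 1.04.

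Signalling and immune proteins among the rest included Spint2, a Kunitz-type inhibitor of serine proteases, with ratios of 0.706, 0.840 and 0.865. Mst1, macrophage stimulating protein, a secreted ligand, had 0.618, 1.01 and 1.05. Traf5, an adaptor of tumor necrosis factor receptors, had 0.607, 0.868 and 0.846, Pdcd1lg2, a ligand of the inhibitory receptor PD-1, had 0.698, 1.13 and 0.905, and Ssc4d, of the scavenger receptor family, had 0.668, 0.951 and 0.854. These last 3 stood under 7 CPM in Vector. The enzymes of ubiquitin transfer were Ube2t, a conjugating enzyme of DNA crosslink repair, with 0.694, 1.12 and 1.11, and Usp20, a deubiquitinase, with 0.697, 0.871 and 0.839. Ddit4, a stress-induced inhibitor of mTORC1, measured 5.34, 5.29 and 6.37 CPM in the Vector libraries, 3.14, 3.82 and 3.904 CPM with EST, 6.23, 5.51 and 5.65 CPM with SREBP2 and 6.41, 4.99 and 5.92 CPM with both, the lowest mean CPM of the members in Vector. It was the only member from the list of integrated stress response genes.

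The remaining 8 members were Fam98c, Tcp11l1, Leng9, Ogfod3, AI413582, Gm32856, Gm35315 and Gm20939, the last 3 of them gene models named by number. Their Vector+EST to Vector ratios ran from 0.596 in Tcp11l1 to 0.696 in Gm35315, and Fam98c, at 1.198, had the highest SREBP2 to Vector ratio of the 50. Gm20939 was the second most variable member over the 6 libraries with SREBP2, at 0.849 to 1.25 of the Vector mean.

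Genes of the same families, picked by name after the members were known, often went other ways. Pip4k2a and Pip4k2c, the sister kinases of Pip4k2b, stood at 0.879 and 0.837 of Vector with EST, small falls that passed the test (edgeR adjusted p = 8.41e-04 and 6.85e-04), against 0.314 for Pip4k2b. Arl8b rose with EST, from 147 to 292 CPM (log2 fold change 1.00 ± 0.04 SE; adjusted p = 1.31e-12), and stood at 271 CPM with SREBP2. Mob3c, Mast2 and Mast4 rose with EST as well, at ratios of 1.83, 1.62 and 2.62 (adjusted p = 4.34e-07, 1.94e-10 and 8.10e-12), and stood at 2.05, 1.55 and 2.36 with SREBP2. Mast1 went the way of Mast3, at ratios of 0.549 with EST, 0.820 with SREBP2 and 0.698 with both (edgeR adjusted p = 1.55e-06 for EST), with its 3 Vector+EST libraries below the other 9, and both SREBP2 ratios were under the band. Other relatives fell with EST and stood at about the same level with SREBP2. Slc20a2, the sister of Slc20a1, stood at 29.2 CPM in Vector, 18.4 with EST, 18.3 with SREBP2 and 16.99 with both (edgeR adjusted p = 9.16e-07 for EST), and the effect of SREBP2 in EST-treated cells was -0.07 ± 0.08 on the log2 scale (SE; adjusted p = 0.594). Cyb5a, which takes electrons from Cyb5r3, stood at 127, 81.5, 80.5 and 83.05 CPM in the same order (adjusted p = 4.51e-09 for EST), and Cyb5r1 at 76.5, 53.5, 52.98 and 53.7 CPM (adjusted p = 1.25e-07 for EST). Klf10, related to Klf6, stood at 25.7 CPM in Vector and 4.71 CPM with EST, 21.7 with SREBP2 and 18.5 with both, where its SREBP2+EST to Vector ratio of 0.720 kept it out. Klf10 was higher with SREBP2 in EST-treated cells (log2 fold change 2.02 ± 0.15 SE; adjusted p = 3.50e-08).

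**Figure D4:**
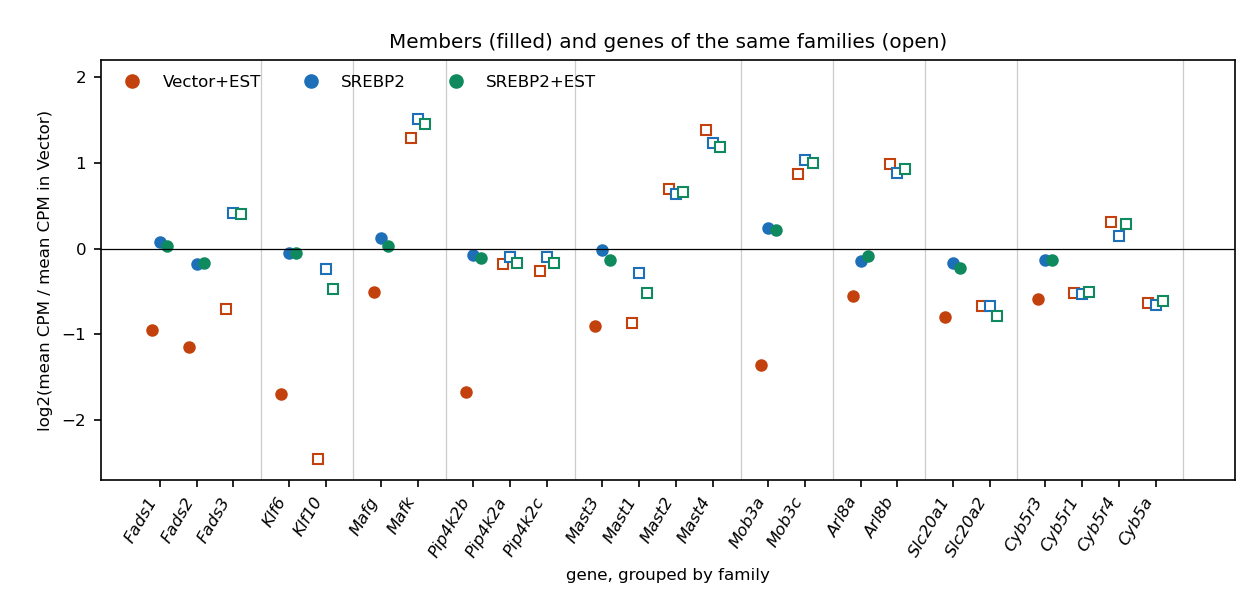
Members (filled circles) and genes of the same families (open squares), grouped by family along the x axis, with log2 of group mean CPM over Vector mean CPM on the y axis. Orange marks Vector+EST, blue SREBP2 and green SREBP2+EST. In the members the orange point lies apart from the blue and green ones near 0, while in Arl8b, Mast4, Slc20a2, Cyb5r1 and Cyb5a the 3 points lie together. Fads3, Klf10 and Mast1 also have the orange point lowest, with the others outside the band for at least 1 SREBP2 group.

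Of the 24 gene lists compared with the members, 4 held any: fatty acid synthesis with Fads1 and Fads2, erythroid transcription factors with Mafg, immediate early genes with Klf6 and the integrated stress response with Ddit4. The list of cholesterol synthesis enzymes held none of the members: 6 of its 20 genes met the EST criterion (beside 19.1% of genes at the CPM minimum), and all 20 were higher with SREBP2 (beside 37.7% of all genes). Hmgcs1 is an example, at 767 CPM in Vector, 430.2 with EST, 1755 with SREBP2 and 1694 with both. Ribosome biogenesis genes, of which 31 of 42 met the EST criterion (beside the same 19.1%), also held none. Since the members were 0.561% of genes at the CPM minimum, a list of this size without a member says nothing about them. The immediate early list had 17 of its 25 tested genes lower and 3 higher with EST in Vector cells, beside 35.5% and 35.2% of all genes. With SREBP2 without EST it had 15 lower and 6 higher, beside 33.8% and 37.7%. Megakaryocyte markers moved in sum like the members: the 9 of 10 analysed summed to 41.1 to 45.6 CPM in Vector, 12.4 to 13.8 in Vector+EST, 47.1 to 61.3 in SREBP2 and 47.2 to 58.2 in SREBP2+EST. The sum joined unlike genes, since Pf4 went from 9.68 CPM in Vector to 6.195 with EST and 46.8 with SREBP2, and Itga2b from 28.7 to 5.21 and 7.103. None of these markers was a member, Vwf and Clec1b had group means of 0.0178 CPM or less, and the part of these markers in the members' levels was not tested. Myeloid or mast cell markers, 11 of 12 analysed, with Cpa3 the highest and none at 0 in all libraries, were also lowest in Vector+EST. They summed to 15.05 to 15.99 CPM in Vector, 3.93 to 4.74 in Vector+EST, 6.90 to 8.03 in SREBP2 and 5.49 to 6.60 in SREBP2+EST, and their part was not tested either.

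To read the genes in a library that had not taken part in the choice, the rule was applied 12 times, each time without 1 library, and the genes chosen were read in that library relative to the mean of the Vector libraries used. These libraries are other samples of the same groups, not an independent experiment, and for the 9 libraries outside Vector the mean they are divided by is that of the same Vector libraries that chose the genes, so only the library's own value is unused. Without a Vector+EST library the rule chose 49 or 50 genes, 46 to 48 of them members, and their median ratio in the library left out was 0.639 in library 1, 0.642 in library 3 and 0.646 in library 5, beside medians of 0.976 to 0.988 over all genes at the CPM minimum. Under the limit of 0.714 lay 43 of 49, 39 of 49 and 39 of 50 genes, beside 19.1% to 19.7% of all genes at the minimum. Without an SREBP2 or SREBP2+EST library it chose 44 to 56 genes, and the left-out library lay inside the band for 35 to 43 of them, with medians between 0.903 and 1.01. Over all genes at the minimum the medians in these libraries were 0.949 to 0.975, so the medians of the chosen genes lay on both sides of those of all genes, and 35.9% to 39.9% of all genes lay inside the band. The lowest such median was that of SREBP2+EST library 2 and the highest that of SREBP2 library 3. A left-out Vector library gave medians of 0.991 to 1.00.

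**Figure D5:**
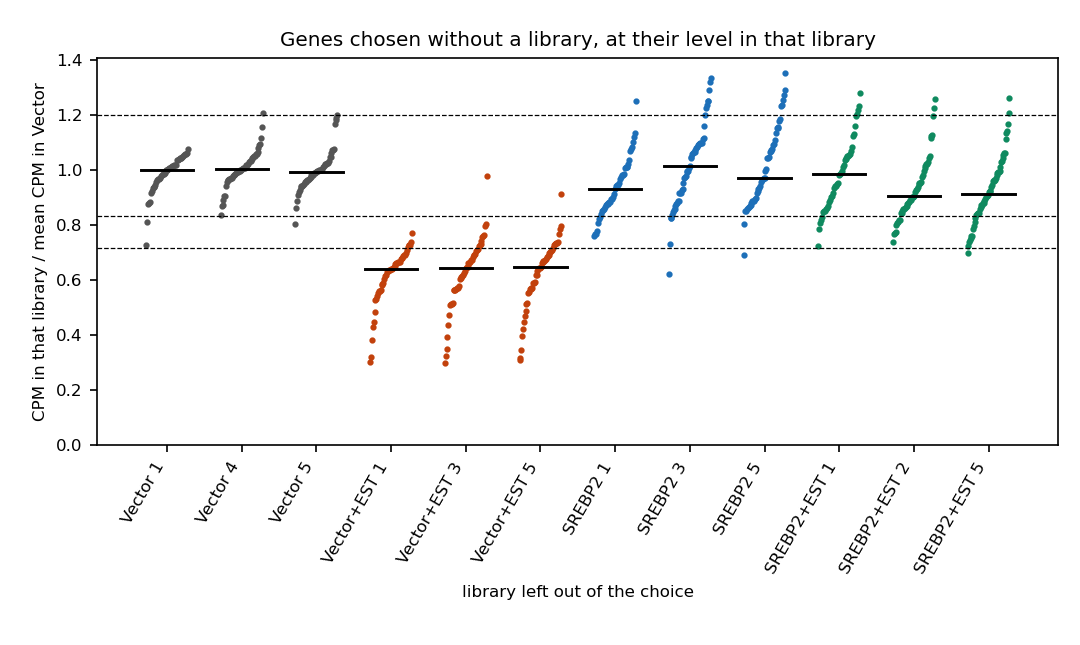
For each library, the genes chosen by the rule without it (points, sorted) at their CPM in that library over the mean CPM of the Vector libraries used, with the median as a bar. Dashed lines mark 0.714, 0.833 and 1.2. The Vector+EST libraries have medians of 0.639 to 0.646, and the SREBP2 and SREBP2+EST libraries of 0.903 to 1.01, with points outside the band on both sides.

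The fit across all 11177 genes gives the background for the members' calls, from which nothing is read because the rule used these contrasts. With edgeR and Benjamini-Hochberg adjustment, all 50 members were lower with EST in Vector cells, as were 35.5% of all genes tested. With SREBP2 in EST-treated cells 49 were higher, Ssc4d being the exception, beside 14% of all genes, and 49 were higher without SREBP2 library 1 and SREBP2+EST library 1 as well. Against Vector, SREBP2 without EST had 9 members higher and 7 lower, beside 37.7% and 33.8% of all genes, and SREBP2+EST had 6 higher and 9 lower, beside 38.6% and 34.2%. These last counts are small and moved with single libraries: SREBP2 without EST had 4 members higher without Vector library 5 and 14 without SREBP2 library 1, and SREBP2+EST had 10 higher without SREBP2 library 1. The 4 groups enter several of these contrasts together, so they are not independent of each other.

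The effect of EST within SREBP2 cells depended on the libraries that stood apart. With all 12 libraries edgeR called 0 of 11177 genes (0%), among them 0 members, while 506 genes had an unadjusted p under 0.05 and DESeq2 called 12. Without SREBP2 library 1 and SREBP2+EST library 1 together, a choice made after seeing the data, edgeR called 1567 of 11292 genes, 7.7% of those tested being lower, and 10 members, all of them lower: Fabp5, Fads1, Gm35315, Larp4, Mafg, Mapk7, Mast3, Pip4k2b, Slc20a1 and Smim3. The median ratio of SREBP2+EST to SREBP2 over the 50 members was 0.978 with all libraries and 0.956 without these libraries, and the number of members under 1 was 35 and 37. Without these libraries 1406 of the 1700 EST-lowered genes were under 1, and 4169 of 8907 genes at the CPM minimum. Among the 10, Gm35315 had the lowest ratio, at 0.779. In Smim3 it went to 0.823, in Fads1 to 0.934 and in Pip4k2b to 0.897. Among the members SREBP2 library 1 was the lowest of its group in 32 of 50 (37.1% of genes at the CPM minimum), SREBP2+EST library 1 the highest of its group in 27 (36.7%), and both held in 21 (21.3%). Without them the rule chose 38 genes, all of them members. Of the 12 others, Cilk1, Ube2t, Fam98c, Rita1 and Mob3a then lay above the band in 1 of the SREBP2 groups, with Mob3a at 1.23 and Fam98c at 1.24 in SREBP2, and Traf5, Exoc6b, Tagap, Slc20a1, Larp4, Usp20 and Yif1b lay below it, with Yif1b at 0.822 in SREBP2 and Larp4 at 0.807 and Usp20 at 0.809 in SREBP2+EST. The members' median ratios to Vector were then 0.987 in SREBP2 and 0.921 in SREBP2+EST, and of the 1700 genes lowered by EST 1557 lay below the band and 40 above it in both groups. The list counts for SREBP2 without EST given above for cholesterol synthesis, fatty acid synthesis and immediate early genes came out at the same numbers without these libraries.

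The members were spread over 18 chromosomes, and RefSeq lists all 50 as protein coding. Within 100 kb of another member lay 8 of them, in 3 places. No such share of other genes is given here, so nothing is read from this count. On chromosome 19, Fads2 (chr19:10062765-10101503) and Fads1 (chr19:10182877-10196874) had no other gene at the CPM minimum between them. On chromosome 7, between 29134607 and 29282059, 5 genes reached the CPM minimum, and 4 were members: Rasgrp4, Fam98c, Yif1b and Spint2. The other, the proteasome subunit gene Psmd8, had a Vector+EST to Vector ratio of 1.05. On chromosome 5, Rita1 and Rasal1 (chr5:120609058-120679597) had between them Ddx54, with a Vector+EST to Vector ratio of 0.717 and SREBP2 ratios of 0.769 and 0.743. Exons of 6 members overlapped exons of another expressed gene on the opposite strand in GENCODE M21, where 48 members were found: Ogfod3 with Hexdc, Mst1 with Rnf123, AI413582 with Hmga1, Leng9 with Leng8, and Rasgrp4 with Fam98c, both of them members. Whether the counting used strand is not given in the sources used here, so reads of these 6 cannot be told apart with certainty from those of their partners. Of the partners outside the group, Hmga1 stood at 0.577 of Vector with EST and 0.600 with SREBP2, Rnf123 at 0.715 and 0.725, Hexdc at 1.13 and 1.27, and Leng8 at 1.11 and 1.26. Leng8 had 372 CPM in Vector, against 6.38 CPM for Leng9.

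Promoter windows of 300 bases, 250 before and 50 after a transcript start, were taken from RefSeq (GRCm38.p6) for 40 of 50 members, and were searched on both strands. The table holds 56 windows for these 40 members, more than 1 for 10 of them, and a window need not lie at the outermost start of its gene. A gene was counted where any of its windows held the motif. A GATA site (the letters GATA with A or T before and A or G after them) lay in a window of 8 members (20%), beside 21.1% of 7308 genes at the CPM minimum. An E-box (CACGTG), which SREBP proteins and many other factors can bind, lay in 5 (12.5%, beside 12.8%). A sterol regulatory element of the form TCACNCCAC lay in 0 of 40 (beside 1.25%), a site of NFE2 or AP-1 (TGANTCA) in 1, Prxl2a (2.5%, beside 5.15%), and an ETS site (CCGGAAG) in 5 (12.5%, beside 24.9%). CCAAT boxes lay in 50% (beside 44.6%) and GC boxes (GGGCGG) in 70% (beside 71.6%). These shares lie near those of other expressed genes or rest on few members, and a match of letters is no binding site. E-boxes lay in 7 windows of 5 members. SREBP proteins can bind an E-box, so 1 site of each member is shown. It is given in 30 bases of the gene's own strand with the motif in capitals:
Klf6, chr13:5861434-5861463, plus strand: ctccaagctggtCACGTGgggggagaaggg
Mafg, chr11:120633571-120633600, minus strand: atgaatggaaccCACGTGaccaaacatcat
Slc20a1, chr2:129198586-129198615, plus strand: gccagccagtccCACGTGgaccagctcctc
Prxl2a, chr14:41013844-41013873, minus strand: gggcgtgtctgtCACGTGaaagtggcgtgg
Cuta, chr17:26939474-26939503, minus strand: ggctgctcctgtCACGTGgtgcacactgtt

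GATA sites lay in 12 windows of 8 members. For each member 1 site is shown in the same way because EST acts through GATA1 in these cells. Several sites lie at starts inside the gene. Counted from the outermost start of the gene in RefSeq, the GATA site lay 47106 bases inside Atp2b4, 7663 bases inside Gm35315, 6834 bases inside Prxl2a and 267 bases inside Cuta, and the E-box 1367 bases inside Mafg and 393 bases inside Cuta. The other sites shown lie before the outermost start:
Atp2b4, chr1:133753936-133753965, minus strand: atgatgtttctgAGATAAatcctctacatt
B4galt7, chr13:55599646-55599675, plus strand: aaTTATCAgagcagtgtttgaagcacaatc
Cuta, chr17:26939600-26939629, minus strand: gcgcacgacctcAGATAAagctgccgattg
Dnase1l1, chrX:74282325-74282354, minus strand: tggggcatttggTTATCTccacgatagagc
Gm35315, chr5:110087118-110087147, minus strand: taacttagacttAGATAAgtaaacttttta
Pdcd1lg2, chr19:29410766-29410795, plus strand: gagagagcctaaAGATAAaacagaactgtt
Prxl2a, chr14:41006982-41007011, minus strand: cagcagtactgcTGATAAagcccagatgca
Rita1, chr5:120612810-120612839, minus strand: ctgaaccgTGATAGatgcttaagggaccta

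The edges of the group were not sharp. At the CPM minimum, Ddit4 and Pdcd1lg2 were just inside at 5.67 and 6.09 CPM, and Cd200r3 and Tnfaip8l1 just outside at 4.71 and 4.46 CPM. At the EST limit, Hes6 and Spint2 were inside at ratios that both round to 0.706, and H2-D1 and Arhgap33 outside at 0.721 and 0.723. At the lower edge of the band, Yif1b was inside with an SREBP2 to Vector ratio of 0.835 and Gaa outside at 0.815, and for SREBP2+EST Usp20 was inside at 0.839, Gm31493 was outside at a ratio just under the limit that also rounds to 0.833, and Vac14 was outside at 0.829. At the upper edge, Fam98c was inside at 1.198 and Arrdc2 outside at 1.21, and for SREBP2+EST Dnase1l1 was inside at 1.19 and Nfkb2 outside at 1.21. With each library left out in turn, 25 members were chosen in all 12 choices and 43 in at least 10, with Usp20 chosen least often, in 7. Among those chosen in all 12 were Klf6, Pip4k2b, Fads1, Fads2, Mapk7, Mast3 and Vim. Under TMM scaling 6 members left the group, each past the upper limit: Cilk1, Dnase1l1, Fam98c, Gm35315, Mob3a and Rita1.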

How the data were processed

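The authors deposited estimated counts per gene, not normalized (66.5% of values whole), in one table of 17210 genes and 12 columns. The submitters' processing notes name HISAT2 2.0.4, Bowtie2 2.2.5, RSEM 1.2.12, DESeq2 1.4.5 and GRCm38.p6. A table of the authors' own comparisons per transcript (fold changes and p-values) was not used. Samples were grouped by their titles. Library names carry the number of the column header, which differs from the replicate number of the title. The rule was applied to CPM over library totals. Counts were rounded and tested in 1 fit of 12 libraries with edgeR 4.0.16 in R 4.3.3 (quasi-likelihood F-test, TMM, filterByExpr keeping 11177 genes, Benjamini-Hochberg, threshold 0.05), with SE taken as the log2 fold change over the square root of F. On simulated counts of the EST effect in Vector cells, 37 of 50 genes changed 1.5-fold, 46 of 50 changed 2-fold, 48 of 50 changed 3-fold and 50 of 50 changed 4-fold were recovered, and 7 of 188 calls were false. The members and the gene lists were chosen with earlier results of these data known. Genes were named by rank in CPM, EST ratio and spread, list membership and nearness to a limit, and grouped by function and family after their values were seen. Coordinates and promoters are RefSeq's (GRCm38.p6), exons GENCODE's. Alternatives were DESeq2 1.42.0, other scalings, filters, limits, a replicate block and leaving out libraries. No pair of libraries of a group agreed within sampling noise (chi-square per gene of 1.81 or more, near 1 for counting error alone). P-values measure the spread between these samples only.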

Additional observations from a re-analysis of the deposited data

How the results depend on the processing

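The number of members followed the limits of the rule more than the scaling. From 50 it went to 85 with an EST fold of 1.3 and 31 with 1.5, and to 20 with a band of 1.1 and 99 with 1.3. It was 67 and 38 with minimums of 1 and 10 CPM, 61 under TMM scaling (44 of the 50 kept), 52 with relative log expression (46 kept), 47 with medians (38 kept) and 44 to 56 with a library left out. TMM moved the log2 ratios of SREBP2 and SREBP2+EST to Vector by 0.06 for all genes. The number of genes changed by EST within SREBP2 cells was 0, and it was 12 with DESeq2, 22 without a low-count filter, 0 to 18 with a library left out (18 without Vector+EST library 5) and 1567 without SREBP2 library 1 and SREBP2+EST library 1. The effect of SREBP2 with EST, 2448 genes and 63.7% of them higher, was the one effect that the header number as a replicate block moved by more than 1.5 times, to 1208 genes and 43 members, 83.2% higher. With library totals only 42.2% were higher, and with DESeq2 55.8%. It ran from 1773 to 3084 with a library left out, and it was 3472, 54.6% higher, without SREBP2 library 1 and SREBP2+EST library 1, where the number of lower genes went from 888 to 1576. Samples that share a header number did not deviate together (correlations of -0.17 to 0.07). SREBP2 library 1 and SREBP2+EST library 1 share a number and stood apart from their groups, so this cannot settle whether the numbers pair the samples. The numbers of genes called for the other effects stayed within 1.5 times, but the few members called against Vector did not. With SREBP2 alone they were 9 higher and 7 lower, 4 and 1 with the block, 6 and 12 with library totals only, 8 and 12 with at least 10 counts in every library, and 13 and 11 without SREBP2 library 1 and SREBP2+EST library 1. With SREBP2+EST they were 6 higher and 9 lower, and in the same order 5 and 1, 4 and 14, 5 and 14, and 5 and 18. With library totals only the share of called genes that were higher went from 52.8% to 47.2% with SREBP2 alone and from 53.0% to 47.6% with SREBP2+EST. Of the values of single members, 1918 moved by less than the spread between replicates and 39 by more, and the cause was not tested. Depth limits the members near the CPM minimum, whose smallest value rested on 42.0 estimated counts.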
